A study of Arabidopsis thaliana with 36 samples.

Results

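AUR1, AUR2 and PRL are 3 Arabidopsis genes of the cell division machinery. The gene table of the array gave each of them 1 probe set that names no other gene. They are 3 of 13356 genes with such a probe set, and were chosen with earlier results of these data known. AUR1 (AT4G32830, probe set 253403_at) and AUR2 (AT2G25880, 266655_at) encode Aurora kinases, and PRL (AT4G02060, 255513_at) encodes PROLIFERA, the MCM7 protein. RNA had been taken from green leaf tissue of 14-day-old seedlings, grown on Gamborg medium with sucrose, 3 h after they were sprayed with water, 50 µM antimycin A or 20 mM hydrogen peroxide. Each of 12 groups, made of 4 genotypes and the 3 sprays, had 3 arrays, 36 in all. The genotypes were the wild type Col:LUC, the chemically induced mutant rao2, the T-DNA insertion line anac017-1, labelled a knock-out, and the line anac017-2, labelled gain of function. All were in the Columbia ecotype, and the Col:LUC label stands on wild type alone, so that a difference of genetic background between wild type and a mutant cannot be told apart from the mutation. Whether the 3 arrays of a group came from separate plants is not given in the sources used here, so the p-values below measure the spread between these arrays. The transcript of ANAC017, the transcription factor that 2 of the lines are named for, had no named probe set and was not analysed here.

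PROLIFERA is a subunit of the ring-shaped MCM helicase, which is loaded onto replication origins before S phase and unwinds DNA during it. The Aurora kinases act later, in mitosis, where plant AUR1 and AUR2 associate with the spindle and the forming cell plate and take part in placing the plane of division. In seedling leaves, transcripts of such genes are known to be concentrated in cells that still divide, near the base of young leaves and in the stomatal lineage. Antimycin A blocks complex III of the mitochondrial respiratory chain, and hydrogen peroxide is a reactive oxygen species. In whole leaf tissue, fewer dividing cells and less transcript per cell cannot be told apart.

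Array medians ran from 77.5 to 83.3 on the linear intensity scale, and arrays of the same group correlated at r = 0.983 to 0.997. The lower quartile of each array, between 2.45 and 2.56 in log2, was the limit up to which a level counted as not above background. All 3 genes were above this limit on all 36 arrays. AUR2 came closest to it on 2 wild type arrays. It stood at 2.85 against a limit of 2.55 on antimycin A replicate 3, and at 3.00 against 2.47 on hydrogen peroxide replicate 1. Levels are log2 intensities, and they are set against each other only within a probe set. The ± after a level is the SD of 3 arrays, and the ± after a change is the standard error of 1 fit to all 36 arrays. A gene was called where its Benjamini-Hochberg adjusted p from limma, over all 22746 probe sets, was under 0.05.

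Under water, PRL had nearly the same level in 3 of the genotypes. Its values were 8.39, 8.39 and 8.21 on the wild type arrays, 8.32, 8.22 and 8.54 in rao2, and 8.42, 8.29 and 8.38 in anac017-2. In anac017-1 they were 6.94, 7.58 and 7.87. All 3 anac017-1 values lay below all values of the other genotypes (21.8% of all probe sets were so against wild type), and the difference from wild type, -0.87 ± 0.37 in log2 (adjusted p = 0.205), did not pass the test.

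AUR1 read 6.91, 7.03 and 6.29 in wild type under water, 5.91, 6.60 and 6.35 in rao2, 5.67, 5.47 and 5.95 in anac017-1 and 6.56, 6.24 and 6.57 in anac017-2. The anac017-1 arrays were again below those of wild type without overlap (-1.04 ± 0.39, adjusted p = 0.135). AUR2 read 6.32, 6.34 and 5.29 in wild type, 4.50, 6.10 and 6.23 in rao2, 4.79, 4.81 and 5.47 in anac017-1 and 5.71, 5.83 and 6.18 in anac017-2. Here the anac017-1 and wild type arrays overlapped (-0.96 ± 0.50, adjusted p = 0.319), and 1 rao2 array was the lowest of the 12 water arrays. limma called 0 of the 3 genes in water in any mutant, where it called 5.43% of all probe sets in anac017-1, 0.132% in rao2 and 0.506% in anac017-2. At an unadjusted p under 0.05 there were 2 genes in anac017-1, AUR1 and PRL, and 0 in rao2 and in anac017-2. The share of all probe sets at that unadjusted threshold was not counted. With arrays weighted by their quality in the fit, AUR1 (-1.09, adjusted p = 0.0227) and PRL (-0.82, adjusted p = 0.0294) were called in anac017-1. The share of all probe sets called in the weighted fit was not set beside these calls. The stomatal lineage marker MUTE was called lower in anac017-1 in the unweighted fit (-0.56 ± 0.13, adjusted p = 0.00723). It was also lower, without a call, in rao2 (-0.51, adjusted p = 0.149) and in anac017-2 (-0.435, adjusted p = 0.184). The other measured markers of this lineage, SPCH (-0.53, adjusted p = 0.55) and FMA (-0.14, adjusted p = 0.682), were not called in anac017-1. The part of these markers in the values was not tested.

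**Figure D1:**
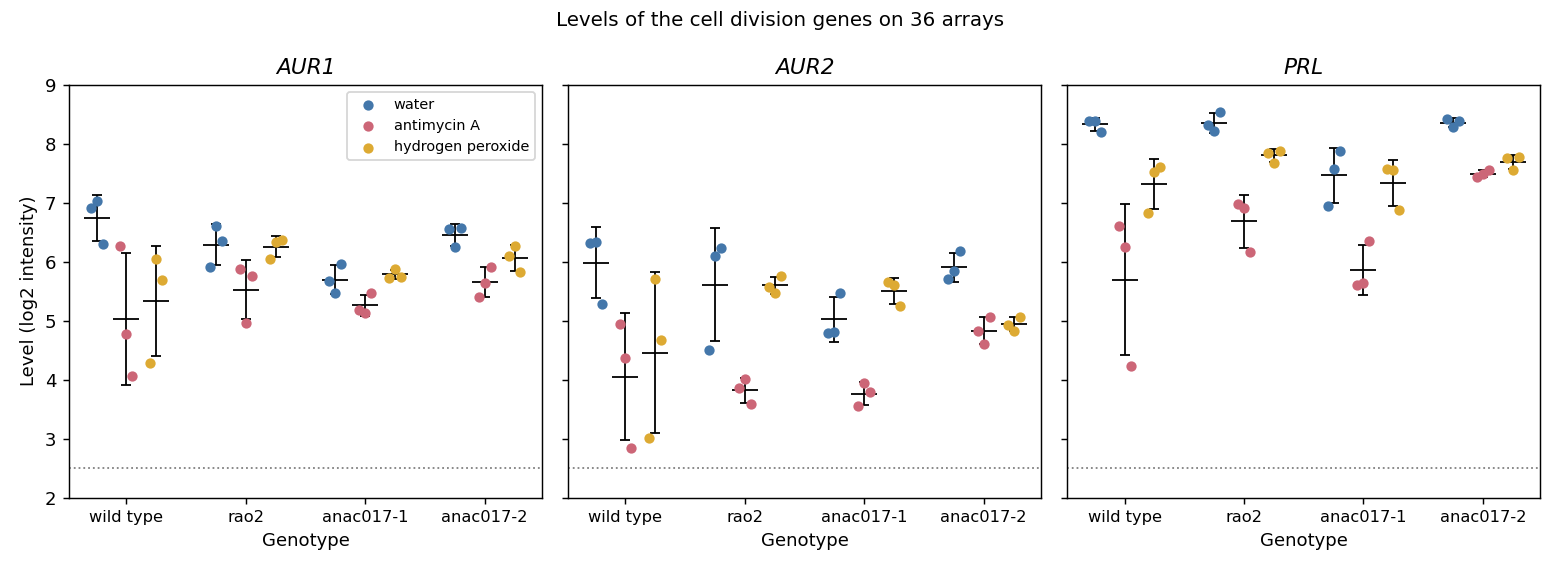
Level of each gene (log2 intensity, vertical axis) on each of the 36 arrays, by genotype (horizontal axis) and spray (colour). Points are single arrays, black bars give the mean and SD of 3 arrays, and the dotted line is the mean lower quartile of the arrays (2.49). In every genotype the antimycin A points of each gene lie below its water points, and the wild type points under both sprays are spread most widely for AUR1 and AUR2.

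Antimycin A lowered all 3 genes in wild type within 3 h. PRL, which stood at 8.33 ± 0.10 under water, read 6.61, 6.24 and 4.23 under antimycin A, a change of -2.63 ± 0.37 (6.21-fold lower, 95% interval -3.40 to -1.86, adjusted p = 1.64e-06). AUR1 read 6.26, 4.77 and 4.06, a change of -1.71 ± 0.39 (3.28-fold lower, 95% interval -2.53 to -0.90, adjusted p = 0.000734). AUR2 read 4.94, 4.37 and 2.85, a change of -1.93 ± 0.50 (3.81-fold lower, 95% interval -2.96 to -0.90, adjusted p = 0.00227). Each of the 9 values lay below all wild type water values of its gene, for AUR1 by a margin of under 0.1, and antimycin A replicate 3 was the lowest array for all 3 genes. Of all probe sets 26.7% were called as lower in this comparison, and 31.2% had all 3 antimycin A values below all 3 water values.

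The size of the fall in wild type depended on antimycin A replicate 3. Without it the changes were -1.90 for PRL, -1.23 for AUR1 and -1.33 for AUR2 (adjusted p = 2.58e-06, 0.0139 and 0.0373). Each gene was called without any 1 of the 6 arrays. Over 3685 other probe sets that moved at least 1 in log2 under antimycin A in rao2, the median change in the rao2 direction was 1.27, 1.54 and 1.68 on wild type antimycin A replicates 1, 2 and 3. The array with the lowest PRL, AUR1 and AUR2 therefore also had the largest general response of the 3, and the array with their highest values the smallest. Its part in the result was not tested. When only the 6 arrays of the comparison entered the fit, PRL alone was called, and AUR1 (adjusted p = 0.0856) and AUR2 (adjusted p = 0.0678) were not.

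PRL and AUR2 also fell under antimycin A in rao2 and in anac017-1. PRL read 6.97, 6.91 and 6.17 in rao2 (-1.67 ± 0.37, adjusted p = 0.000565) and 5.60, 5.64 and 6.35 in anac017-1 (-1.60 ± 0.37, adjusted p = 0.000791). AUR2 read 3.86, 4.01 and 3.59 in rao2 (-1.79 ± 0.50, adjusted p = 0.00462) and 3.55, 3.94 and 3.80 in anac017-1 (-1.26 ± 0.50, adjusted p = 0.0414). These 12 values were below every water value of their gene and genotype. The AUR2 call in anac017-1 was lost without any 1 of the 6 arrays of the comparison (adjusted p = 0.053 to 0.156).

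AUR1 did not pass the test in either mutant. It read 5.87, 4.96 and 5.76 under antimycin A in rao2 (-0.76 ± 0.39, adjusted p = 0.134) and 5.18, 5.14 and 5.47 in anac017-1 (-0.44 ± 0.39, adjusted p = 0.457). In both mutants the antimycin A arrays were nevertheless below the water arrays without overlap, in anac017-1 by less than 0.01. The calls, 2 of 3 genes in each of these mutants, stand beside 25.8% of all probe sets called as lower in rao2 and 27.7% in anac017-1. All 3 antimycin A values were below all 3 water values for 29.4% and 31.7% of probe sets.

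In anac017-2 the mean level of each gene under antimycin A was above that in the other genotypes under this spray. PRL read 7.44, 7.49 and 7.56 (-0.87 ± 0.37, adjusted p = 0.129), AUR1 5.41, 5.63 and 5.91 (-0.81 ± 0.39, adjusted p = 0.194) and AUR2 4.83, 4.60 and 5.07 (-1.08 ± 0.50, adjusted p = 0.166). All 9 values were below the water values of their gene, as they were for 19.2% of all probe sets, yet limma called 0 of the 3 genes. At an unadjusted p under 0.05 there were 2, PRL and AUR2, and the share of all probe sets at that threshold was not counted. Of all probe sets 8.39% were called as lower. In a fit of these 6 arrays alone, which takes its spread from the anac017-2 groups, all 3 genes were called (adjusted p = 0.00346 for PRL, 0.0253 for AUR1 and 0.0145 for AUR2). The share of all probe sets called in that fit was not set beside these calls.

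Hydrogen peroxide lowered the 2 Aurora kinase genes in wild type, and these calls rested on few arrays. AUR1 read 4.27, 6.04 and 5.70 (-1.41 ± 0.39, 2.65-fold lower, adjusted p = 0.0166), all below the wild type water arrays. AUR2 read 3.00, 5.70 and 4.67 (-1.53 ± 0.50, 2.88-fold lower, adjusted p = 0.0397), and 5.70 on replicate 2 lay above the lowest water value of 5.29. PRL read 6.83, 7.52 and 7.60, all below 8.21, the lowest water value, and did not pass the test (-1.01 ± 0.37, 95% interval -1.78 to -0.24, adjusted p = 0.0701). The calls, 2 of 3 genes, stand beside 8.03% of all probe sets called as lower, and 29.8% had all 3 values below the water values.

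Hydrogen peroxide replicate 1 was the lowest array of its group for all 3 genes. Without it the change of AUR1 was -0.87 (adjusted p = 0.157), that of AUR2 -0.80 (adjusted p = 0.328) and that of PRL -0.77. The call of AUR1 was also lost without water replicate 1 or 2, and that of AUR2 without either of these or hydrogen peroxide replicate 3. The general response was taken from 424 other probe sets that moved at least 1 under hydrogen peroxide in rao2. Their median change in the rao2 direction was 1.05, 1.06 and 1.27 on replicates 1, 2 and 3. Unlike under antimycin A, the array with the lowest values of all 3 genes, replicate 1, had the smallest general response, close to that of replicate 2. The part of this response in the result was not tested. In a fit of these 6 arrays alone, limma called 0 of the 3 genes (adjusted p = 0.158 for AUR1 and 0.259 for AUR2). PRL was called when 16 was added to each intensity before the log (-0.94, adjusted p = 0.0303) and with array weights (-0.98, adjusted p = 0.00607).

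**Figure D2:**
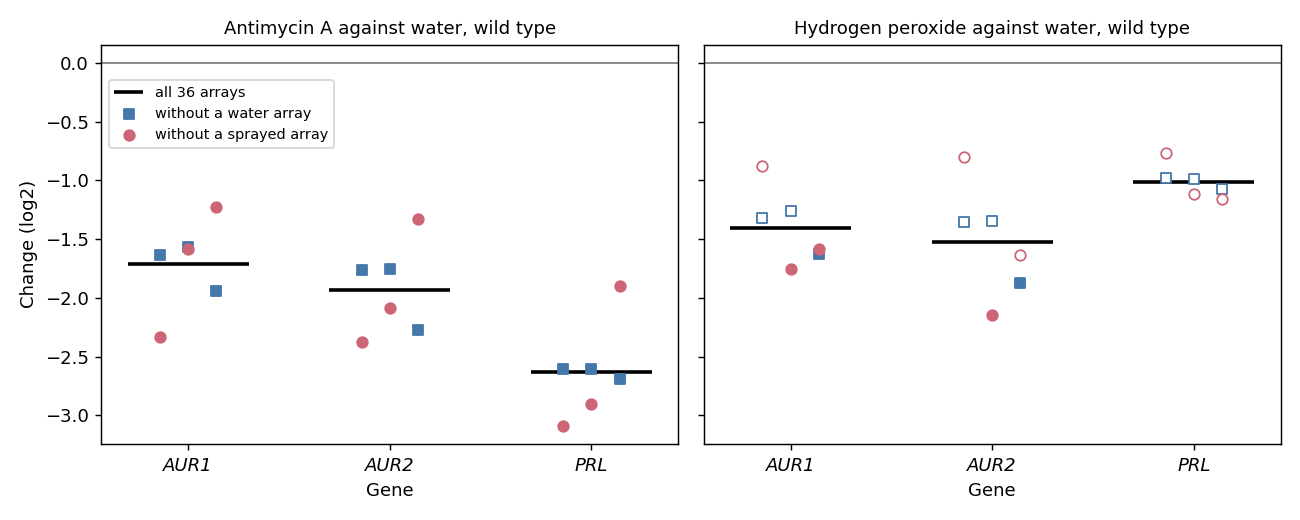
Change against water in wild type (log2, vertical axis) for each gene (horizontal axis) under antimycin A (left) and hydrogen peroxide (right). Black lines give the value from all 36 arrays, squares and circles the value after 1 water or 1 sprayed array was left out, and open symbols mark values that were not called. All antimycin A values were called, whereas the hydrogen peroxide change of AUR1 shrank to -0.87 and that of AUR2 to -0.80 without replicate 1.

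Under hydrogen peroxide limma called 0 of the 3 genes in each mutant, also at an unadjusted p under 0.05. In rao2 AUR1 read 6.05, 6.34 and 6.38 (-0.03 ± 0.39) and AUR2 5.56, 5.48 and 5.76 (-0.01 ± 0.50), both among the water values, while PRL at 7.85, 7.67 and 7.89 was below them, as 16.3% of all probe sets were (-0.56 ± 0.37, adjusted p = 0.44). In anac017-1 AUR1 read 5.73, 5.88 and 5.74 (0.09 ± 0.39), AUR2 5.66, 5.60 and 5.25 (0.48 ± 0.50) and PRL 7.57, 7.55 and 6.88 (-0.13 ± 0.37), each overlapping its water values. In anac017-2 AUR1 read 6.09, 6.26 and 5.83 (-0.40 ± 0.39), AUR2 4.93, 4.83 and 5.07 (-0.97 ± 0.50, adjusted p = 0.267) and PRL 7.76, 7.56 and 7.78 (-0.67 ± 0.37, adjusted p = 0.322), the last 2 genes below water without overlap, as 14.4% of all probe sets were. The share of all probe sets called in either direction was 11.4% in rao2, 1.42% in anac017-1 and 9.01% in anac017-2. The intervals remain wide, and a change of AUR2 from -1.04 to 1.02 in rao2 lies within its 95% interval. In a fit of the 6 anac017-2 arrays alone, AUR2 (adjusted p = 0.0453) and PRL (adjusted p = 0.0345) were called. The share of all probe sets called in that fit was not set beside these calls.

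**Figure D3:**
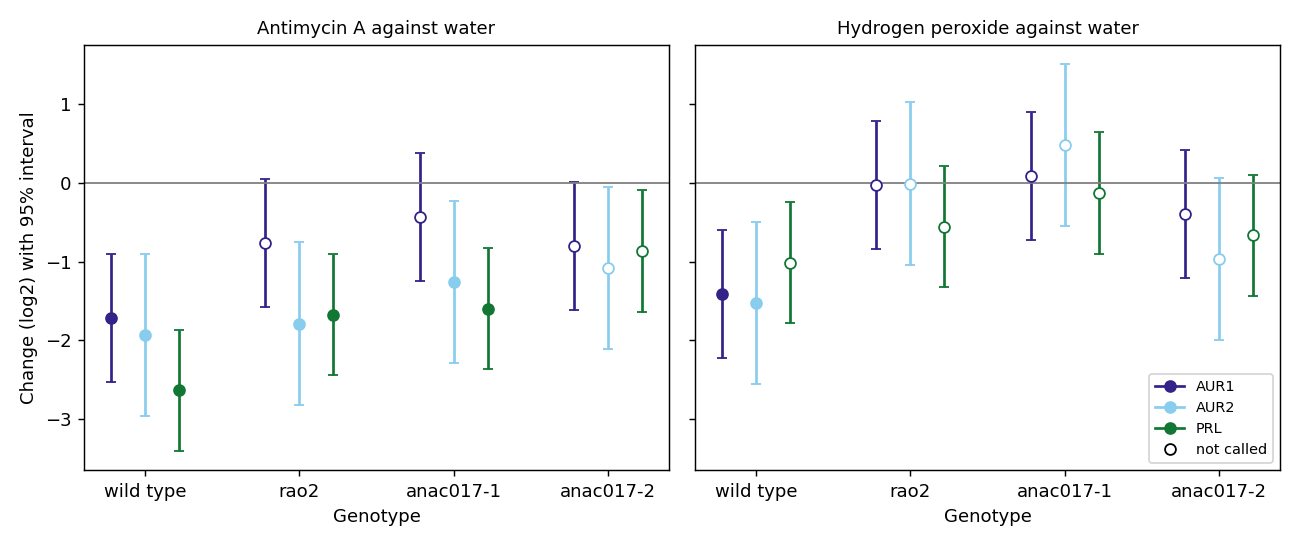
Change against water (log2, vertical axis) of AUR1, AUR2 and PRL in each genotype (horizontal axis) under antimycin A (left) and hydrogen peroxide (right), with unadjusted 95% intervals of the fit to 36 arrays. Filled points were called at an adjusted p under 0.05 and open points were not. All antimycin A changes are below 0, from -2.63 for PRL in wild type to -0.44 for AUR1 in anac017-1, and under hydrogen peroxide the only called changes are those of AUR1 and AUR2 in wild type.

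The sprays were also set against each other within each genotype. PRL was lower under antimycin A than under hydrogen peroxide in wild type (-1.62 ± 0.37, adjusted p = 0.0011), in rao2 (-1.12 ± 0.37, adjusted p = 0.0188) and in anac017-1 (-1.47 ± 0.37, adjusted p = 0.00184), each without overlap of the arrays. Of all probe sets 25.2%, 27.9% and 36.4% lay so in the 3 genotypes. AUR2 was lower under antimycin A in rao2 (-1.78 ± 0.50, adjusted p = 0.00562) and in anac017-1 (-1.74 ± 0.50, adjusted p = 0.00526), whereas in wild type, where both sprays lowered it, the difference was -0.40 ± 0.50 (95% interval -1.43 to 0.63). AUR1 did not pass the test in any genotype, with differences from -0.73 to -0.31. In anac017-2 limma called 0 of the 3 genes, also at an unadjusted p under 0.05, and PRL differed by -0.20 ± 0.37 (95% interval -0.97 to 0.57). The share of all probe sets called as lower under antimycin A was 21.6% in wild type, 24.2% in rao2, 28.2% in anac017-1 and 3.04% in anac017-2. The PRL difference in wild type was not called in a fit of its 6 arrays alone (adjusted p = 0.164), and the one in rao2 not without antimycin A replicate 3 (-0.86) or hydrogen peroxide replicate 3 (-1.08).

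Whether a mutant responded differently from wild type was tested as the difference of the 2 responses, each against its own water arrays. The 3 differences of a spray share the wild type arrays and are not independent of each other. The antimycin A response of PRL was smaller in anac017-2 than in wild type, by 1.77 ± 0.53 in log2 (95% interval 0.68 to 2.86, adjusted p = 0.0125). It stayed called without any 1 of the 12 arrays, with values from 1.04 to 2.23, the lowest without wild type antimycin A replicate 3, and was not called in a fit of those 12 arrays alone (adjusted p = 0.0898). This is 1 of 3 genes, beside 17.3% of all probe sets called in that direction and 28.4% in either. Over the 3685 probe sets above, the median change in the rao2 direction was 0.28 to 0.40 on the anac017-2 antimycin A arrays, against 1.27 to 1.68 on those of wild type. The stomatal lineage marker FMA differed in the same direction (0.96 ± 0.24, adjusted p = 0.00273), and its part in the PRL result was not tested.

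The other differences in the antimycin A response did not pass the test. For AUR1 they were 0.95 ± 0.56 in rao2, 1.28 ± 0.56 in anac017-1 and 0.91 ± 0.56 in anac017-2, for AUR2 0.14, 0.67 and 0.86 (each ± 0.71), and for PRL 0.96 in rao2 and 1.03 in anac017-1 (each ± 0.53). All 8 were positive, that is, towards a smaller fall in the mutant. The share of all probe sets with a positive difference was not counted. In anac017-1 the water means of AUR1, AUR2 and PRL were 5.70, 5.02 and 7.46, against 6.74, 5.98 and 8.33 in wild type. Its antimycin A means were 5.26, 3.76 and 5.87, against 5.03, 4.05 and 5.70. Of all probe sets 1.3% were called in rao2 and 2.98% in anac017-1. Without wild type antimycin A replicate 1, the highest of its group for each gene, the AUR1 difference was called in anac017-1 (1.90, adjusted p = 0.0266) and in anac017-2 (1.52, adjusted p = 0.0149). Each was called in only this 1 of 12 left-out settings. The values ran from 0.79 to 1.90 in anac017-1 and from 0.42 to 1.52 in anac017-2. The share of all probe sets called in that fit was not set beside these calls.

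For hydrogen peroxide, limma called 0 of the 3 genes in all 3 mutants. AUR1 differed from wild type by 1.37 ± 0.56 in rao2 (adjusted p = 0.612), 1.49 ± 0.56 in anac017-1 (adjusted p = 0.388) and 1.01 ± 0.56 in anac017-2 (adjusted p = 0.734). AUR2 differed by 1.52 ± 0.71 in rao2 (adjusted p = 0.732), 2.01 ± 0.71 in anac017-1 (adjusted p = 0.344) and 0.56 ± 0.71 in anac017-2 (adjusted p = 0.861). PRL differed by 0.46, 0.89 and 0.35 in the same order. At an unadjusted p under 0.05 there were 2 genes in rao2 and 2 in anac017-1, AUR1 and AUR2 in both, and 0 in anac017-2. The share of all probe sets at that unadjusted threshold was not counted, so these counts have no background to stand beside. limma called 0.0132% of all probe sets in rao2, 0.0264% in anac017-1 and 0.0352% in anac017-2, so that a call in wild type and none in a mutant was not shown to be a difference between them.

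Ordered by their means, the water groups of wild type, anac017-2 and rao2 held the top 3 places for each gene. The lowest mean of AUR1 (5.03 ± 1.13) and of PRL (5.70 ± 1.28) was that of wild type under antimycin A, and that of AUR2 (3.76 ± 0.19) was anac017-1 under antimycin A. For PRL the 4 groups with the next highest means after water in those genotypes were rao2 under hydrogen peroxide, anac017-2 under hydrogen peroxide, anac017-2 under antimycin A and anac017-1 under water. Neighbours in the order mostly did not differ beyond their spread: of 11 steps between neighbouring groups, the gap exceeded the larger SD in 1 for AUR1, 1 for AUR2 and 4 for PRL. The only step at which arrays did not overlap was that of PRL from wild type under water to rao2 under hydrogen peroxide, a gap of 0.53.

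The spread between arrays was uneven. For AUR1 the SD of a group ran from 0.08 to 1.13, for AUR2 from 0.12 to 1.36 and for PRL from 0.06 to 1.28, and the widest group of each gene was wild type under a spray. In wild type the same array was the lowest of its group for all 3 genes under each spray: replicate 3 under water and antimycin A, replicate 1 under hydrogen peroxide. In the 9 groups of the mutants no array was the lowest for all 3. AUR2 and PRL had the same lowest array in 9 of the 12 groups, AUR1 and PRL in 5 and AUR1 and AUR2 in 4.

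Over the 12 group means the genes had similar patterns, with r = 0.89 for AUR1 and AUR2, 0.90 for AUR1 and PRL and 0.89 for AUR2 and PRL. The points share the spray and the genotype, and for these genes they come from the same arrays. Among 4746 probe sets with group means that spanned at least 1 in log2, PRL was the 19th most like AUR1, AUR2 the 21st most like AUR1, and AUR2 the 488th most like PRL. AUR1 and AUR2 are close relatives in sequence, and how far 1 transcript binds the probes of the other was not tested.

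The most similar named profile for PRL was that of AT4G03100 (r = 0.99 over 12 group means), followed by AT3G23740 (0.99) and by ATLP-1, ASF1B and NET1A (0.98). ASF1B is a histone chaperone and NET1A an actin-binding protein. For AUR1 the 5 were AT3G52110, AT4G02800, AT5G48310, AT3G17680 and AT5G23910, all at r = 0.95. For AUR2 they were AT2G16270 (0.96), AT3G52110 (0.96), AT5G01870, AT1G63640 and UBC20 (0.95), of which UBC20 encodes a ubiquitin-conjugating enzyme. AT3G52110 was thus among the 5 for both kinases.

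Of 139 other genes in 7 lists for replication, the G1-S and G2-M transitions, mitosis and cytokinesis, cell cycle inhibitors with the anaphase-promoting complex, the DNA damage checkpoint and leaf growth regulators, 16 had a probe set of their own. AT1G07270 and JAG were not above background on any array, and Haspin was above it on 6. Under antimycin A in wild type 7 of the 16 fell and 1 rose, beside 26.7% of all probe sets called as lower and 17.2% as higher, with a list median of -0.30 against -0.02 over all probe sets. In rao2 4 fell and 1 rose (25.8% and 16.4% of all probe sets), and in anac017-1 5 fell and 1 rose (27.7% and 17.7%), shares of falls near those of all probe sets. In anac017-2 2 fell, beside 8.39% of all probe sets, and 0 rose. The list medians in these mutants were -0.31, -0.16 and -0.13. Under hydrogen peroxide 4 fell in wild type, 0 in rao2, 0 in anac017-1 and 1 in anac017-2, beside 8.03%, 6.3%, 0.637% and 4.84% of all probe sets, and 0 rose in any. When single arrays were left out, the count of calls ran from 0 to 4 for hydrogen peroxide in wild type, from 0 to 3 for it in anac017-2 and from 0 to 2 for antimycin A in anac017-2.

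Among the replication genes ICU2, the catalytic subunit of DNA polymerase alpha, fell by amounts near those of PRL. Under antimycin A it went in wild type from 6.14 ± 0.27 to 3.71 ± 0.55 (-2.43 ± 0.31, adjusted p = 3.23e-07), and its change was -1.86 in rao2, -2.02 in anac017-1 and -1.04 in anac017-2, all called. It was called under hydrogen peroxide in wild type (-1.16 ± 0.31, adjusted p = 0.0119) and in anac017-2 (-1.20 ± 0.31, adjusted p = 0.015). Topoisomerase gene TOPII, whose product untangles DNA, fell under antimycin A in wild type (-1.07 ± 0.24) and anac017-1 (-1.01 ± 0.24), and under hydrogen peroxide in wild type (-0.78 ± 0.24).

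Mitotic genes were mixed. BUB3.1, a spindle checkpoint protein, fell under antimycin A in wild type (-1.20 ± 0.20), rao2 (-0.95 ± 0.20) and anac017-1 (-0.83 ± 0.20), and under hydrogen peroxide in wild type (-0.58 ± 0.20, adjusted p = 0.0481). BUBR1, of the same checkpoint, was low, with group means from 2.59 to 3.67. It fell under antimycin A in anac017-2 (-0.82 ± 0.22, adjusted p = 0.0122), where the antimycin A and water arrays overlapped. HTR12, the centromeric histone H3, fell in wild type under both sprays (-1.04 under antimycin A and -0.95 under hydrogen peroxide), and the phragmoplast motor KINESIN-12B fell under antimycin A in wild type (-0.72) and rao2 (-0.77). The remaining Aurora gene AUR3, of the other class of the family, was low, with group means from 2.59 to 3.16, and was not called in any comparison (-0.24 under antimycin A in wild type, adjusted p = 0.629).

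KEU, a vesicle fusion regulator of cytokinesis that also acts outside it, was the gene that rose: 1.01 ± 0.12 in wild type, 1.30 in rao2 and 1.40 in anac017-1 under antimycin A, and 0.11 in anac017-2, where it was not called. Among the inhibitors and the anaphase-promoting complex, the inhibitor SIM fell under antimycin A in wild type (-0.96 ± 0.24) and the subunit gene HBT in wild type (-0.59), rao2 (-0.92) and anac017-1 (-0.61). SAMBA fell in anac017-1 alone, from 8.21 ± 0.28 under water to 7.82 ± 0.05 under antimycin A.

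**Figure D4:**
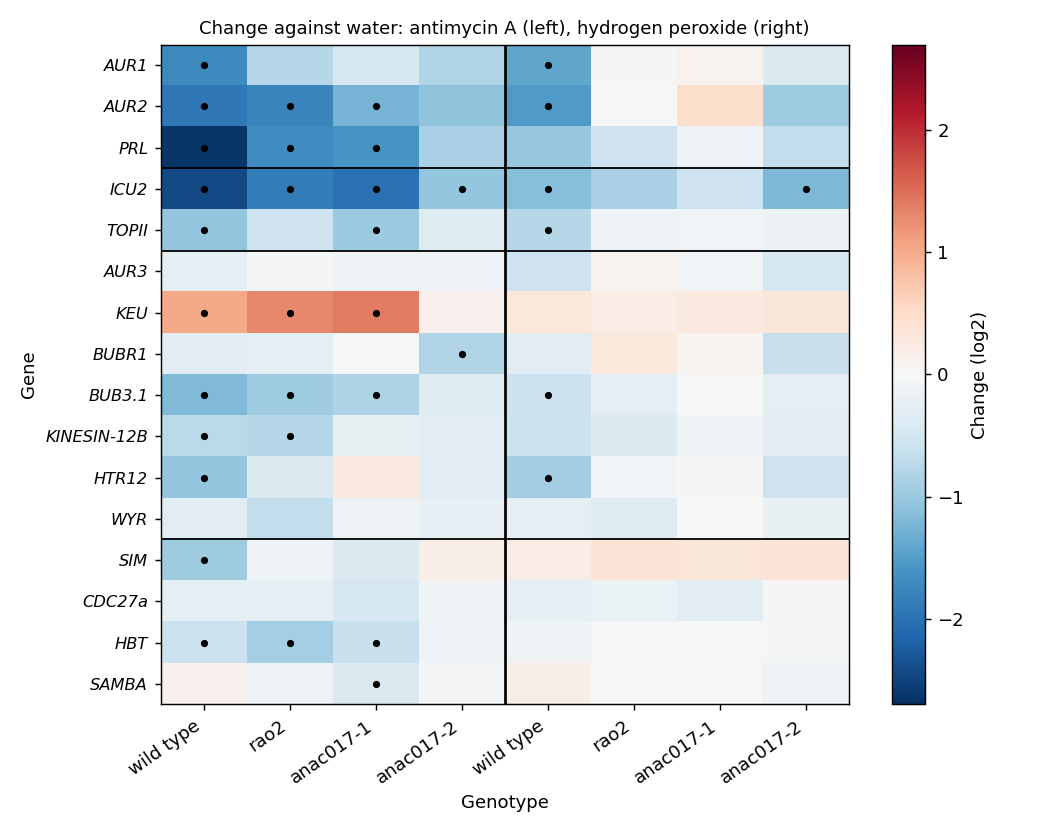
Change against water (log2, colour) under antimycin A (left of the vertical line) and hydrogen peroxide (right) in 4 genotypes for AUR1, AUR2 and PRL (top block) and 13 other cell cycle genes: replication, then mitosis and cytokinesis, then inhibitors and the anaphase-promoting complex. Black dots mark called changes, and AT1G07270, JAG and Haspin are left out as low. PRL (-2.63) and ICU2 (-2.43) show the darkest falls in wild type under antimycin A, and KEU is the gene with called rises.

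The leaf marker RCA, encoding Rubisco activase, was strong in every group (14.5 to 14.7) and was not called in any spray comparison with water. The shoot meristem markers CLV3 and LAS and the root hair marker EXPA7 were not above background on any array, while the root and hypocotyl marker PYK10 stood between 9.62 and 11.2 in all groups and was not called against water. Of 8 listed stomatal lineage markers 3 were measured, the transcription factor genes SPCH, MUTE and FMA, and all 3 were called lower in wild type under antimycin A (-1.58, -0.59 and -0.93), as 26.7% of all probe sets were. There 2 of 3 SPCH values and all 3 MUTE values were at or below background. Under hydrogen peroxide in wild type MUTE (-0.55) and FMA (-0.57) were called, as 8.03% of all probe sets were called as lower. The MUTE values there, 2.47 to 2.51, were just above the background limit of those arrays, 2.47. In rao2 (-0.41) and anac017-1 (-0.92) FMA alone was called under antimycin A, beside 25.8% and 27.7% of all probe sets called as lower. In anac017-1 FMA was also called under hydrogen peroxide (-0.65), beside 0.637%. In anac017-2 none of the 3 was called under either spray. Under water 1 of the 3 MUTE values in anac017-1 was at or below background. The part of these markers in the results for AUR1, AUR2 and PRL was not tested. The 3′ minus 5′ signal of 3 control transcripts, a measure of RNA integrity and labelling, ran on the wild type arrays from 2.94 to 3.23 in log2 under water. Under antimycin A it ran from 3.05 to 3.18 and under hydrogen peroxide from 3.15 to 3.18. Its group mean under water and antimycin A was 3.22 and 3.375 in rao2, 3.275 and 3.48 in anac017-1, the highest of all groups, and 3.15 and 3.16 in anac017-2. The part of this signal in the results was not tested.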

How the data were processed

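RNA of 36 leaf samples had been hybridised to one-colour Affymetrix arrays, 1 sample per array. The deposited values were intensities on a linear scale, normalized across arrays by the authors. The submitters' processing notes name RMA and GCRMA, with no version and no word on which of these the deposited intensities came from. Scanner files and detection calls were not analysed here. The number of arrays, 3 per group, limits the precision.

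Analysis was on log2 intensities. Of 22810 probe sets, 64 controls were left out and 22746 were tested. The gene table gave 1 gene for 13513 probe sets, several for 503 and had no entry for 8730; only the first were named. The genome build behind the probe sets is not given in the sources used here, so no positions are printed. Locus tags were paired with symbols through the RefSeq gene table. No sequences are printed.

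In R 4.3.3, lmFit and eBayes of limma 3.58.1 fitted the means of the 12 labelled groups to the 36 arrays (degrees of freedom: 24 residual, 1.28 prior), with 21 contrasts: 8 of a spray against water, 4 between sprays, 3 of a mutant against wild type in water and 6 differences of responses. Simulated data with known changes were used to check the script. No scan date or batch was given. Named besides the 3 genes were all measured members of the lists, by the probe set with the highest mean, and for each gene the 5 single-gene probe sets with the highest r over 12 group means, among those with a mean above the lower quartile and a range of at least 1. The genes and lists were chosen with earlier results of these data known. Alternatives were 9 other settings of the fit and leaving out each array in turn.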

Additional observations from a re-analysis of the deposited data

Results flagged for a closer look

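A response that differed between a mutant and wild type by the test of the difference itself marked 7 results, all under antimycin A. Beside them stand 28.4% of all probe sets called in either direction in anac017-2 and 2.98% in anac017-1. For hydrogen peroxide the shares were 0.0132% in rao2, 0.0264% in anac017-1 and 0.0352% in anac017-2. Among the 16 other cell cycle genes 4 were called in anac017-2, and 1 to 6 when single arrays were left out. For PRL the response in anac017-2 minus that in wild type was 1.77 ± 0.53 (adjusted p = 0.0125). Of the other cell cycle genes, ICU2 (1.38 ± 0.44, adjusted p = 0.018), BUB3.1 (0.87 ± 0.28, adjusted p = 0.0185) and SIM (1.13 ± 0.33, adjusted p = 0.0113) likewise fell less in anac017-2 than in wild type. The stomatal lineage marker FMA changed by -0.93 in wild type and 0.03 in anac017-2, a difference of 0.96 ± 0.24 (adjusted p = 0.00273). KEU rose less in anac017-2 (-0.90 ± 0.16, adjusted p = 0.000172). For SAMBA, a regulator of the anaphase-promoting complex, the response in anac017-1 minus that in wild type was -0.51 ± 0.14 (adjusted p = 0.0446), from a change of -0.39 in anac017-1 and 0.12 in wild type.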

How the results depend on the processing

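The 63 values of AUR1, AUR2 and PRL, 21 contrasts each, kept their direction where they were called, and none that was called changed sign; 3 uncalled values did so with array weights. All 63 kept their side of the threshold under quantile normalization, median centring, a filter on dim probe sets, low values raised to the quartile and eBayes with trend and robust variance. Quantile normalization and centring moved the median of all probe sets by less than 0.06. Adding 16 before the log took the genes called under antimycin A in anac017-1 from 2 to 1, and array weights raised those under antimycin A in anac017-2 from 0 to 1, in anac017-1 under water from 0 to 2 and in the antimycin A difference of anac017-2 from 1 to 2. With only the groups of a contrast in the fit, which leaves fewer arrays for the spread, the genes called were 1 in place of 3 for antimycin A in wild type, 3 in place of 0 for antimycin A in anac017-2, 0 in place of 2 for hydrogen peroxide in wild type, 2 in place of 0 for hydrogen peroxide in anac017-2, 0 in place of 1 between sprays in wild type and 0 in place of 1 for the antimycin A difference of anac017-2. AUR1 between sprays in anac017-1 was then called (adjusted p = 0.012). For all these settings the share of all probe sets called was not set beside the calls. Over the 9 settings the calls among the 16 other genes ran from 4 to 8 for antimycin A and from 1 to 5 for hydrogen peroxide in wild type, against 8 and 4 in the report.

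Leaving out single arrays gave 1 gene for antimycin A in anac017-1, 0 to 2 for hydrogen peroxide in wild type, 1 to 2 between sprays in wild type and in rao2, 0 to 1 for the antimycin A difference of anac017-1 and 1 to 2 for that of anac017-2. AUR1 between sprays in wild type was called in 1 of 6 left-out settings, without antimycin A replicate 1 (-0.93, adjusted p = 0.0415). Its values there ran from -0.93 to 0.18.

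The labels do not say what the replicate numbers share, and they were not taken as pairs: the deviations of 198 same-number pairs from their group means correlated at -0.33 to 0.39 (median 0.04, against -0.02 for different numbers), with 56 over 0.1. On average over the other groups, 27 of 36 arrays correlated best with their own number, where 12 would if the number had no bearing. Whether the numbers share a factor that the labels do not name was not tested. With the replicate number as a block, all 63 values kept their call, and PRL under antimycin A in wild type stayed at -2.63.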
